A study of Rattus norvegicus with 4 samples.

Results

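The baseline transcriptome of uncoated cardiac myocytes was read from the 2 control arrays of a study with 4 arrays, control replicates 1 and 2, chosen by their labels. Each array held total RNA of rat ventricular myocytes taken from neonatal hearts and grown as a primary culture. Per the labels, both cultures were plated without a coating, held for 24 h in medium with 10% serum and then for 48 h without serum. The other 2 arrays, from fibronectin-coated dishes, were not used. The labels do not say whether the control samples came from separate cell preparations, so the spread between them may be technical. Primary ventricular cultures can also hold fibroblasts, smooth muscle and endothelial cells, and any step to remove them was not given in the sources used here.

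Ventricular myocytes contract through sarcomeres, in which myosin thick filaments pull on actin thin filaments when calcium leaves the sarcoplasmic reticulum. They draw most of their ATP from mitochondria, and the rat heart moves around birth from a slow myosin (Myh7) and glycolysis toward a fast myosin (Myh6) and fatty acid oxidation. The matrix around them, collagen above all, is made mainly by fibroblasts, while natriuretic peptides are hormones that myocytes themselves secrete.

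The 15866 probe sets other than the Affymetrix control sets were quantile normalized over the 2 arrays, given a floor of 4.70 (the 20th percentile) and ranked by their mean log2 signal. Each of 10411 genes was represented by its brightest probe set with 1 gene symbol. The median gene had a signal of 7.02, and the 1041 genes in the brightest 10% had a mean of at least 9.28. The last gene inside that threshold lay at 9.282 and the first outside at 9.277. Probe sets bind their targets with different strength, so the ranks order signals and do not count transcripts. Genes with near-identical copies, such as actins, myosin heavy chains, globins and ribosomal proteins, may share signal. On the deposited scale, replicates 1 and 2 had medians of 110.7 and 90.9. Ratios of 3' to 5' signal on control replicates 1 and 2 were 1.46 and 1.40 for beta-actin, 1.64 and 1.15 for GAPDH, and 3.77 and 4.12 for hexokinase. The beta-actin 3' control set itself read 3636 on replicate 1 and 9501 on replicate 2.

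The 20 brightest genes were those of mitochondrial respiration, the sarcomere, protein synthesis and fibrillar collagen. COX2 and COX1 here are the cytochrome oxidase subunits of the mitochondrial genome. COX2 stood first, at 13.87 on each array, followed by the elongation factor Eef1a1 at 13.55 and 13.60. The ventricular regulatory light chain Myl2 held rank 3, at 13.57 on replicate 1 and 13.34 on replicate 2. Col1a1, a chain of type I collagen, held rank 4, at 13.22 and 13.55. Atp5f1b, the catalytic beta subunit of ATP synthase, followed at 13.39 and 13.31, and COX1 at 12.95 and 13.68. Among the 20 genes were 9 ribosomal protein or elongation factor genes, 5 sarcomere genes (Myl2, Myh7, Tnnc1, Tpm1 and Tnnt2) and 2 fibrillar collagens (Col1a1 and Col3a1). The mitochondrial phosphate carrier Slc25a3 also belonged to them, at rank 15.

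The order among these 20 genes was loose. Of 19 neighbouring pairs, 18 had ranges over the 2 arrays that overlapped, and 106 of all 190 pairs kept their order on both arrays. The gap from rank 1 to rank 20 was 0.92, and 13 genes were among the 20 brightest of each array taken alone. Of the 20 brightest probe sets, 11 carried 1 gene symbol, 5 carried several and 4 carried none. The last 9 are left unnamed, so the order of named genes is not the order of all transcripts. Cardiac alpha-actin (Actc1) is not analysed here.

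All 5 genes used to check the labelled cell type, markers of ventricular and atrial muscle and of collagen-producing cells, were in the brightest 10%. Col1a1 at 13.22 and 13.55 overlapped Myh7, the slow beta-myosin heavy chain, at 13.11 and 13.48. Atp2a2, which pumps calcium back into the sarcoplasmic reticulum, read 12.98 on replicate 1 and 12.38 on replicate 2, below both values of Myh7. Nppa, the atrial natriuretic peptide, read 12.18 and 11.03, below both values of Atp2a2. Myh6, the fast alpha-myosin heavy chain, read 10.03 and 9.54, and lay lowest of the 5 markers at rank 665 of 10411. In bulk RNA, fewer cells of a type and less RNA per cell cannot be told apart.

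**Figure D1:**
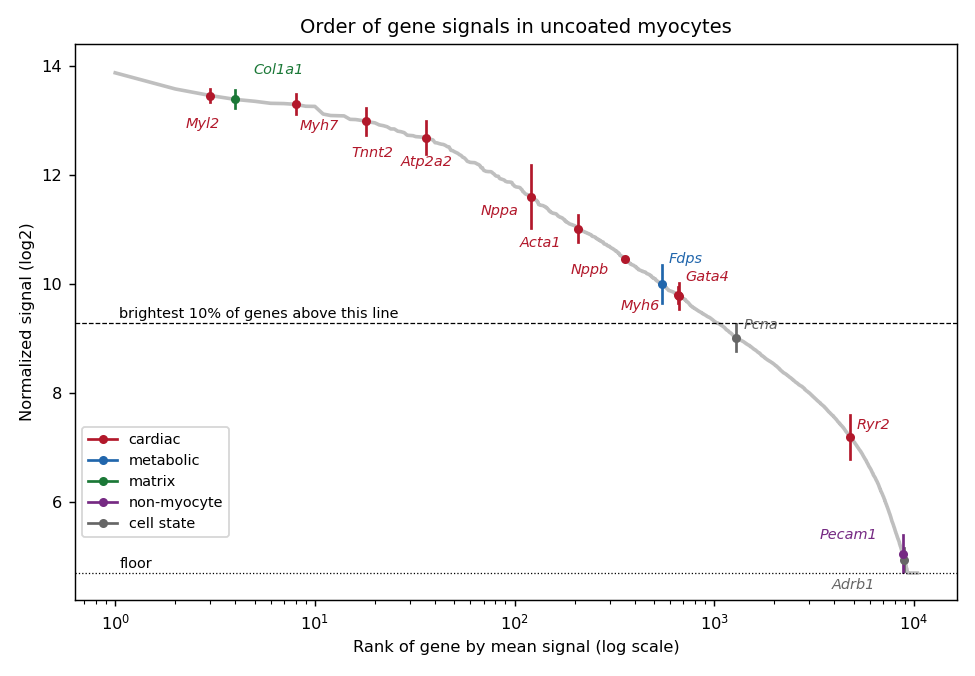
Normalized log2 signal of all 10411 genes against their rank (log axis), as a grey line, with named genes as points at the mean of the 2 control arrays and vertical lines joining the values of control replicates 1 and 2. Myl2, Col1a1 and Myh7 sit at ranks 3, 4 and 8, Nppa at rank 121 with the longest line of the named genes in the brightest 10%, and Pecam1 and Adrb1 close to the dotted floor at 4.70.

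Of 561 listed genes on the array, out of 670 listed in 31 groups, 242 (43.1%) were in the brightest 10% of genes, a class that holds 10.0% of all genes by construction. Metabolic groups had 94 of 159 members there (59.1%), cardiac groups 54 of 99 (54.5%), matrix groups 42 of 88 (47.7%) and groups on cell state 40 of 98 (40.8%). Groups of markers of cells other than ventricular myocytes had 21 of 126 (16.7%), and 16 of those 21 were listed for fibroblasts or smooth muscle. The 16 included desmin (Des), also counted with the cardiac Z-disc group. The 21 included Ckm, also counted with energy transfer. At the floor on both arrays were 36 listed genes, against 10.7% of all genes: 18 non-myocyte markers, 7 cardiac genes, 7 cell state genes, 3 metabolic genes and 1 matrix gene. Some genes stand in more than 1 group.

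**Figure D2:**
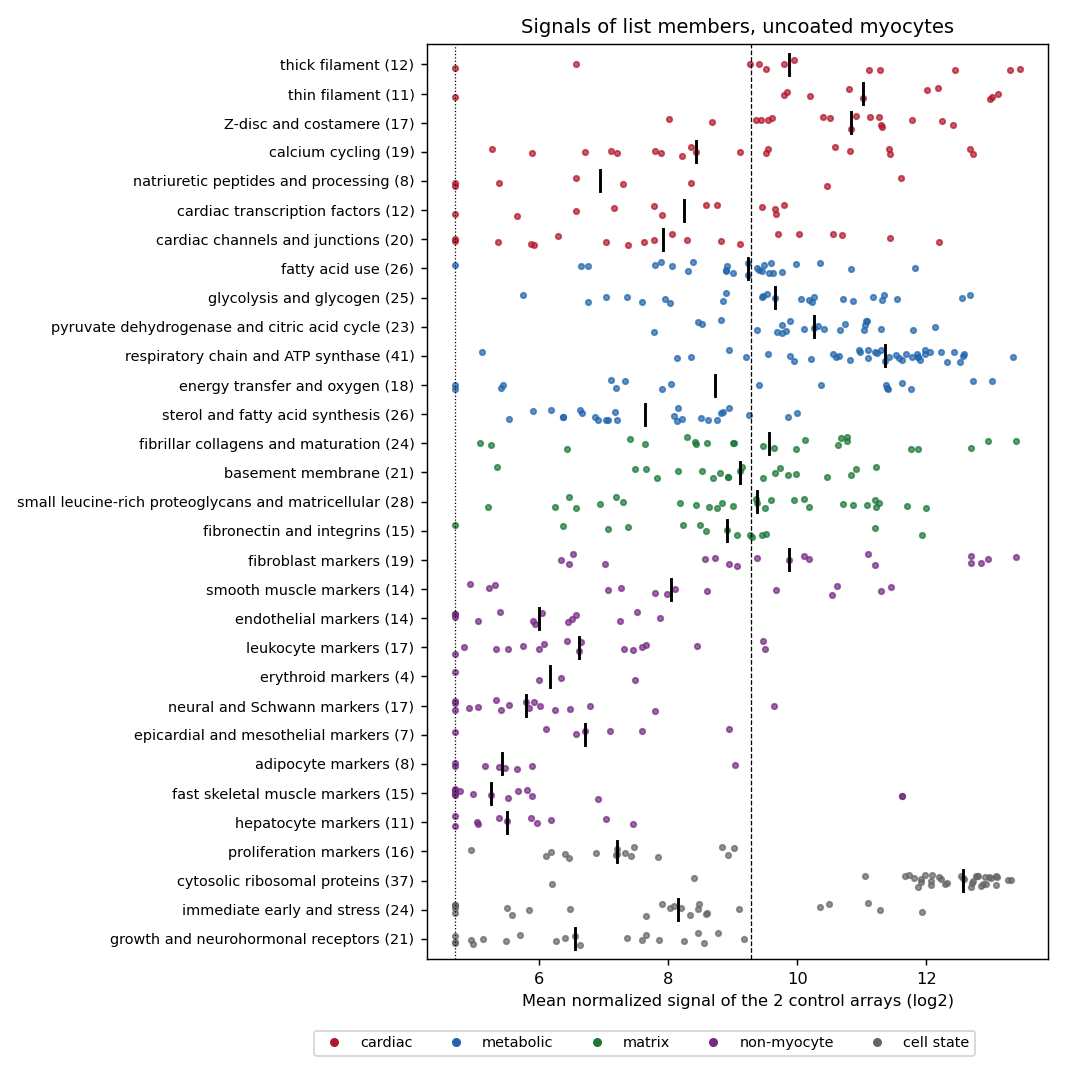
Mean normalized log2 signal over the 2 control arrays of every listed gene on the array, 1 point per gene, by group with the number of genes in brackets; the black bar is the group median, the dashed line the lower edge of the brightest 10% of genes and the dotted line the floor. Ribosomal proteins, the respiratory chain and thin filament genes lie mostly right of the dashed line, and endothelial, erythroid and hepatocyte markers all lie left of it.

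In the thick filament, the ventricular light chains Myl2 and Myl3 and the heavy chain Myh7 stood above the atrial light chains in the order of signals. Of 12 thick filament members 9 were in the brightest 10%, with a median percentile of 94.1 among all genes. The essential light chain of ventricle, Myl3, read 12.45 and 12.46 (rank 48), titin (Ttn) 10.84 and 11.72, and myosin-binding protein C (Mybpc3) 11.00 and 11.20. The atrial light chains stood further down, Myl4 at 9.77 and 10.11 and Myl7 at 9.98 and 9.05. Myl4, Myh6 and Myl7 held ranks 570, 665 and 825, and their ranges over the 2 arrays overlapped. Mybph, a relative of myosin-binding protein C, was at the floor.

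Thin filament genes had 10 of 11 members in the brightest 10%, the exception being slow skeletal troponin T (Tnnt1) at the floor. Troponin C (Tnnc1), which binds calcium, read 13.01 and 13.22, tropomyosin Tpm1 13.34 and 12.69, and cardiac troponin T (Tnnt2) 13.23 and 12.74. The fetal troponin I isoform Tnni1 read 12.20 and 12.15, and the adult cardiac isoform Tnni3 12.07 and 11.96. Their ranks, 67 and 79, come from different probe sets, and a second set for Tnni1 averaged 11.86. Skeletal alpha-actin (Acta1), a sarcomeric actin of the fetal heart, read 10.76 and 11.27 at rank 208.

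Z-disc and costamere genes, which anchor the filaments and tie them to the membrane, had 15 of 17 members in the brightest 10%. Ankrd1, a stretch-responsive titin partner, led with 12.61 and 12.21, followed by the chaperone Cryab at 12.23 and 12.25. Vinculin (Vcl) read 11.43 and 12.12, sarcomeric alpha-actinin (Actn2) 11.05 and 11.57, and desmin (Des) 11.33 and 11.25. The members outside the brightest 10% were the actin-binding Xirp1, at 8.77 and 8.56, and telethonin (Tcap), at 7.91 and 8.11.

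Calcium cycling genes were spread more widely, with 8 of 19 members in the brightest 10% and a median percentile of 79.5. Phospholamban (Pln), the inhibitor of the calcium pump, read 12.94 and 12.52 (rank 29) and overlapped Atp2a2 (rank 36). Casq2, which stores calcium in the reticulum, read 11.52 and 11.37, and the sodium-calcium exchanger Slc8a1 10.66 and 10.49. The release channel Ryr2 was far lower in the order, at 7.60 and 6.79 (rank 4782). Sarcolipin (Sln), an atrial inhibitor of the pump, read 7.73 and 6.48.

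Of the 8 natriuretic peptide and processing genes on the array, Nppa and Nppb were in the brightest 10%. Nppa held rank 121 but differed by -1.15 between replicate 2 and replicate 1, while the B-type peptide Nppb read 10.41 and 10.49 at rank 357. Furin, a protease that processes B-type prohormone, read 8.34 and 8.36. The receptor Npr2 read 6.88 and 7.71, and both Npr1, the receptor of the peptides of Nppa and Nppb, and the clearance receptor Npr3 were at the floor. The C-type peptide Nppc read 5.18 and 5.56.

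The promoters of Nppa, Nppb, Acta1 and Atp2a2 are shown because these genes are classic readouts of the fetal and calcium programmes of myocytes and all stood in the brightest 10%. Each is the 60 bases before the RefSeq start in the GRCr8 assembly, on the gene's strand, with the letters TATAAA in capitals where they lie 40 to 16 bases before the start. The array carries no coordinates of its own.
Nppa, chr5:163712124-163712183, plus strand: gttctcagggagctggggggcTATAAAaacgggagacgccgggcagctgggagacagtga
Nppb, chr5:163699948-163700007, plus strand: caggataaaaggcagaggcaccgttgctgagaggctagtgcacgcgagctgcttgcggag
Acta1, chr19:68784195-68784254, minus strand: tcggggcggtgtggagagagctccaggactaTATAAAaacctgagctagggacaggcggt
Atp2a2, chr12:39733459-39733518, plus strand: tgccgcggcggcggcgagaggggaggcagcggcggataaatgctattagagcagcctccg
Nppa and Acta1 held the letters, starting 39 and 29 bases before the start, and Nppb and Atp2a2 did not, which says nothing about any factor.

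Searched on the gene's strand in that window, TATAAA occurred in 1.5% of 27457 RefSeq promoters and in 2.12% of the 8630 promoters matched to genes on the array. Along the order of signals its share was 4.52% in the dimmest of 10 equal classes of 863 genes, 0.348% in the eighth class and 2.67% in the brightest class. Mean GC content of the promoters was 55.7% in the dimmest class and 60.7% in the brightest. Among listed genes the letters were found in 4 of 72 cardiac, 1 of 138 metabolic, 2 of 61 matrix, 6 of 87 non-myocyte and 4 of 82 cell state promoters. Bright genes with the letters included S100a4 from the fibroblast marker group, the ribosomal genes Rplp0 and Rps28, and Nppa, Calr, Ccn2 and Acta1. Myh1 also held them, but whether its probe sets bind RNA of other myosin heavy chains was not tested. A match is a description of letters and not a site.

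Cardiac transcription factors reached the brightest 10% with 4 of 12 members, and with 1 when the sets of each gene were averaged. Gata4 read 9.64 and 9.94, the Hippo pathway effector Tead1 9.72 and 9.62, the serum response factor Srf 9.72 and 9.58, and the homeobox factor Nkx2-5 9.61 and 9.28. These 4 spanned ranks 660 to 882, and the ranges of neighbours overlapped. Mef2c read 7.64 and 7.90 and Tbx5 6.97 and 6.17, while the ventricular homeobox gene Irx4 was at the floor. Dimmer second sets averaged 6.51 for Gata4, 7.86 for Tead1 and 7.40 for Srf.

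Among 20 genes for channels and cell junctions, 6 were in the brightest 10%, most of them junction genes. Connexin 43 (Gja1), the main gap junction protein of ventricle, read 12.42 and 11.96, desmoplakin (Dsp) 11.80 and 11.07, and N-cadherin (Cdh2) 9.72 and 10.32. Potassium channel genes lay lower, with Kcnq1 at 8.05 and 8.08, Kcnd2 at 5.80 and 6.02, and Kcnj2 at 5.58 and 5.13. The pacemaker channel Hcn4 and the subunit Kcne1 were at the floor.

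None of 21 growth and neurohormonal receptors was in the brightest 10%, and their median percentile was 40.6. The cytokine co-receptor Il6st stood highest, at 9.25 and 9.09, and fibroblast growth factor receptor Fgfr1 read 8.50 and 9.03. The alpha-1B adrenoceptor Adra1b read 9.22 and 7.87 and the angiotensin receptor Agtr1a 7.51 and 7.21. The beta-1 adrenoceptor Adrb1 read 5.15 and 4.74, and Adra1a, Agtr1b and the neuregulin receptor Erbb4 were at the floor.

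Respiratory chain and ATP synthase genes had a median percentile of 98.6, with 36 of 41 members in the brightest 10% and none at the floor. Behind Atp5f1b came Cox8a at 12.74 and 12.43, Atp5mc3 at 12.82 and 12.30, Cox6c at 12.74 and 12.30 and Cox4i1 at 12.37 and 12.48. Cox6a2, the heart and muscle form of that oxidase subunit, read 12.27 and 12.38 at rank 55. Cox7a1, another heart and muscle form, was at 4.72 and 5.49, and Cox5a differed widely, at 9.56 on replicate 1 and 7.14 on replicate 2.

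Pyruvate dehydrogenase and citric acid cycle genes, a group that also holds Got1 and Got2, had 19 of 23 members in the brightest 10%. The cytosolic malate dehydrogenase Mdh1 led at 12.20 and 12.07, followed by the isocitrate dehydrogenase Idh2 at 11.93 and 11.64. The mitochondrial malate dehydrogenase Mdh2 read 11.14 and 11.03. Idh3a, at 8.96 and 8.66, was outside the brightest 10%. Citrate synthase (Cs) read 11.00 and 10.31. The kinases that switch off pyruvate dehydrogenase stood lower, Pdk2 at 9.10 and 7.95, Pdk1 at 8.41 and 7.13 and, counted with fatty acid use, Pdk4 at 6.76 and 6.74.

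Glycolysis and glycogen genes had 16 of 25 members in the brightest 10%, at a median percentile of 92.8. The heart form of lactate dehydrogenase, Ldhb, read 12.81 and 12.53 and the muscle form Ldha 11.70 and 11.39. Aldolase (Aldoa) read 12.47 and 12.64, and glycogen phosphorylase of muscle (Pygm) 10.35 and 10.16. The insulin-responsive glucose transporter Slc2a4 read 7.41 and 6.64, and hexokinase Hk2 5.49 and 6.00.

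Fatty acid use genes had 12 of 26 members in the brightest 10%, at a median percentile of 89.6. The heart fatty acid binding protein Fabp3 led at 11.86 and 11.78, and the trifunctional protein subunits Hadhb and Hadha read 11.06 and 10.60, and 10.23 and 9.74. Cpt2, a step of carnitine-dependent entry into mitochondria, read 8.60 on replicate 1 and 7.00 on replicate 2. Among energy transfer genes, 9 of 18 were in the brightest 10%: Slc25a3, the adenine nucleotide carriers Slc25a4 (12.77 and 12.68) and Slc25a5, muscle creatine kinase Ckm (11.49 and 11.76), myoglobin Mb (10.80 and 11.98), Vdac1, Vdac2, Vdac3 and Ak3. The regulators Ppargc1a and Ppara were at the floor.

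Sterol and fatty acid synthesis genes were the metabolic group lowest in the order, with 2 of 26 members in the brightest 10% and a median percentile of 63.6. These were Fdps, which makes farnesyl diphosphate, at 9.64 and 10.34, and the desaturase Scd2, at 9.31 and 10.39. On replicate 2 alone 6 members were in the brightest 10%, and with the mean over the probe sets of a gene 1 was. None was at the floor on both arrays. Mvd, an enzyme of the mevalonate pathway, read 5.25 on replicate 1 and 7.46 on replicate 2.

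Matrix genes were led by the fibrillar collagens, 13 of whose 24 group members were in the brightest 10%. Col3a1 read 12.68 and 13.23 (rank 20) and Col1a2 12.28 and 13.11 (rank 34). The collagen chaperone Serpinh1 read 11.87 and 11.66, and P4hb, a subunit of the collagen prolyl hydroxylase, 11.96 and 11.79. The minor chains Col11a1, at 5.29 and 5.21, and Col5a3, at 5.47 and 4.70, ended the order. Basement membrane genes had 9 of 21 members in the brightest 10%, with Col4a1 at 11.51 and 10.93, laminin gamma 1 (Lamc1) at 11.09 and 10.72, and laminin alpha 2 (Lama2), the muscle chain, at 10.22 and 9.74.

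Small leucine-rich proteoglycan and matricellular genes had 15 of 28 members in the brightest 10%. Sparc, a collagen-binding protein, read 11.54 and 12.45, Mgp 11.54 and 11.84, and connective tissue growth factor (Ccn2) 10.87 and 11.65. Periostin (Postn) read 10.81 and 11.59 and decorin (Dcn) 9.72 and 10.65. Fibronectin itself (Fn1) read 11.98 and 11.87, at rank 85, in these uncoated dishes. Its beta-1 integrin receptor subunit Itgb1 read 11.41 and 11.01 on the brighter probe set and 9.61 and 10.33 on the other, so its replicates differed in opposite directions on the 2 sets. Fibronectin and integrin genes as a group had 5 of 15 members in the brightest 10%, with the laminin receptor chain Itga7 at 8.76 and 8.42 and vitronectin (Vtn) at the floor.

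Fibroblast markers had 11 of 19 members in the brightest 10%, at a median percentile of 94.1, as high as that of the thick filament. Vimentin (Vim) read 12.61 and 13.07 and S100a4 12.78 and 12.61, while the collagen receptor Ddr2 read 8.43 and 8.69, Pdgfra 8.53 and 8.92 and the lineage factor Tcf21 6.20 and 7.83. Of these 19 markers 7 also stand in matrix groups, and 4 of the other 12 were in the brightest 10%. Smooth muscle markers had 5 of 14 members there, among them Des, which also stands in the cardiac Z-disc group. Smooth muscle alpha-actin (Acta2), which myofibroblasts and immature myocytes also make, read 10.82 and 12.09, transgelin (Tagln) 9.89 and 11.35, and the smooth muscle myosin Myh11 8.10 and 8.12.

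Markers of 7 other cell types lay mostly below the median gene: 3 of 78 were in the brightest 10%, 59 lay below the median of all genes and 13 were at the floor. Among endothelial markers, Vwf, Nos3 and Plvap were at the floor, Pecam1 read 5.39 and 4.71, and Eng, the highest, 7.76 and 7.97. The leukocyte markers in the brightest 10% were Lgals3 (9.30 and 9.69) and the macrophage lysozyme Lyz2 (9.21 and 9.73), while the pan-leukocyte gene Ptprc read 4.95 and 4.70. On replicate 1 alone 0 leukocyte markers were in the brightest 10%. The third of the 78 in that class was Pmp22, a myelin gene that fibroblasts also make, at 9.38 and 9.88, and the Schwann cell factor Sox10 was at the floor. Beta-globin (Hbb) read 6.88 and 8.06. Epicardial and mesothelial markers had a median percentile of 43.9: Aldh1a2, a retinoic acid enzyme, read 8.63 and 9.25, Msln 7.74 and 7.43, Krt8 6.76 and 7.43, and the factor Wt1 6.33 and 5.89, with Cdh1 at the floor. Adipocyte markers had a median percentile of 21.6, but the lipid droplet gene Cidea read 9.40 and 8.65 and was in the brightest 10% on replicate 1 alone. Hepatocyte markers had a median percentile of 22.9, with albumin (Alb) at 6.30 and 5.44.

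Fast skeletal muscle markers had 2 of 15 members in the brightest 10%. Ckm is shared with heart. The other was the probe set labelled Myh1, a fast myosin heavy chain, at 11.72 and 11.53, with 4 further sets between 8.45 and 11.12. Myh4, Myh8, Myh3, Tnnc2 and the myogenic factor Myod1 were at the floor. Whether the Myh1 sets bind RNA of other myosin heavy chains was not tested.

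Ribosomal protein genes had 35 of 37 members in the brightest 10% and a median percentile of 99.6, the highest of the 31 groups. Rpl39 at 8.62 and 8.18 and Rpl30 at 6.74 and 5.65 were the exceptions. Of 73 ribosomal genes listed, 37 had a probe set with 1 symbol. Proliferation markers had none of 16 members in the brightest 10%: Pcna, the DNA polymerase clamp, read 9.26 and 8.77, the mitotic kinase Cdk1 7.79 and 7.89, and Mki67 6.83 and 6.93, near the median gene, with 1 member in that class on replicate 1 alone. Stress genes in the brightest 10% were the chaperones Hsp90ab1, Hspa5 and Hspb1 with Txnip and Mt2A, 5 of 24 in that group. Egr1 read 8.29 and 8.89, and the early genes Fosb and Atf3 were at the floor.

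The control arrays correlated at r = 0.94 and rho = 0.92 across 15866 probe sets, which share an array and are not replicates. The median absolute difference was 0.31, and 1661 probe sets (10.5%) differed by at least 1, a factor of 2 in signal. Disagreement depended on the level. In 10 equal classes by mean signal, the floor held the 2 dimmest classes together, and the third class had 29.3% of probe sets differing by at least 1. The share was 27.1% in the fourth class, 13.7% in the fifth, 9.7% in the sixth and 4.91% in the brightest. The SD within probe sets went from 0.665 in the fourth class to 0.349 in the brightest. A probe set of the brightest class moved by a median of 165 places between the arrays, and one of the fifth class by 1227 places. Of the 1041 places in the brightest 10% of genes, 864 went to the same genes on both arrays.

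**Figure D3:**
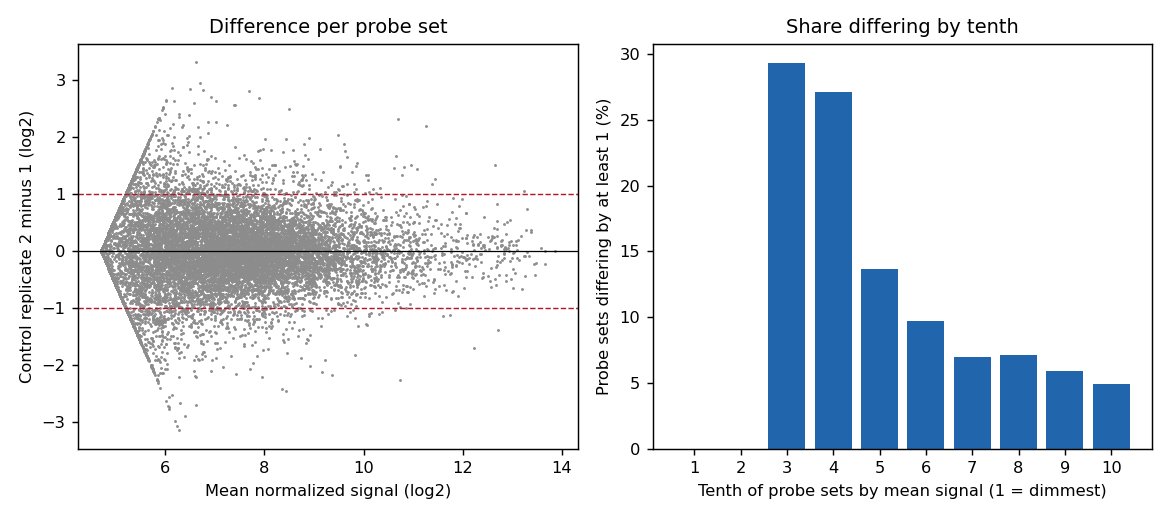
Agreement of the 2 control arrays by signal level: on the left the log2 difference of replicate 2 minus replicate 1 against the mean log2 signal, 1 point per probe set, with dashed lines at 1 and -1, and on the right the percentage of probe sets that differ by at least 1 in 10 equal classes from dimmest to brightest. The dimmest classes are held together by the floor. The share of probe sets that differ by at least 1 on the log2 scale peaks at 29.3% in the third of 10 classes and is 4.91% in the brightest. In the third class 822 of 1586 sets are at the floor on 1 array only.

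Probe sets outside the dimmest classes could also differ widely between the controls. Among named sets in the brightest 60%, Dusp23, a phosphatase, had the largest difference, at 7.84 and 4.94. The alpha-globin gene Hba-a3 read 5.07 and 7.92, in the same direction as Hbb. Alas2, another erythroid marker, went the other way, at 6.59 and 5.39. Pik3r1, the regulatory subunit of PI3-kinase, was at the floor on replicate 1 and higher on replicate 2 by 2.86. One of 11 probe sets for Tpm3 read 5.55 and 8.26, whereas the brightest Tpm3 set read 9.80 and 9.88.

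Differences between the controls ran mostly in 1 direction within several groups. Over all genes 43.3% were higher on replicate 2 at any size and 45.9% lower, with 4.46% higher and 5.23% lower by at least 1. Among sterol and fatty acid synthesis genes 21 of 26 were higher on replicate 2 and 9 were higher by at least 1, with a median difference of 0.61. These included Mvd, Msmo1 (8.27 and 9.62), Cyp51 (8.22 and 9.47), Insig1 (7.76 and 9.25) and Fasn (8.18 and 9.32). Fdps read 9.64 and 10.34, and Sqle hardly differed, at 7.12 and 7.22. The 5 lower members were Insig2, a relative of Insig1 (6.82 and 6.43), Pmvk (7.16 and 6.57), Acaca, Sc5d and Hsd17b7. Across 6 settings of scaling, floor and probe sets, the group's median stayed between 0.51 and 0.70 relative to that of all genes.

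Proteoglycan and matricellular genes were higher on replicate 2 in 20 of 28 cases, with a median of 0.53, of which 6 were higher by at least 1. Lower by at least 1 were 2 members, the matricellular genes Ccn1 (7.10 and 5.39) and Thbs4 (5.71 and 4.70). Mmp14, a membrane collagenase, read 9.54 on replicate 1 and 11.86 on replicate 2. Fibroblast markers were higher in 15 of 19 cases, with a median of 0.36, and in 9 of the 12 outside matrix groups, with a median of 0.33. Leukocyte markers were higher in 11 of 17 cases, with a median of 0.39. Smooth muscle markers had the same median as fibroblast markers, 0.36, but between 0.01 and 0.70 over the 6 settings. Their 2 largest differences were in Tagln and Acta2.

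Fatty acid use genes were lower on replicate 2 in 22 of 26 cases, with a median of -0.35, and Cpt2 was lower by at least 1. Pyruvate dehydrogenase and citric acid cycle genes were lower in 20 of 23 cases, with a median of -0.26. Respiratory chain genes were lower in 30 of 41, with a median of -0.16. Glycolysis and glycogen genes were lower in 16 of 25 cases, with a median of -0.28, but 2 were higher and 2 lower by at least 1. Among cardiac groups, 14 of 19 calcium cycling genes were lower (median -0.17), 8 of 12 transcription factors (median -0.23) and 11 of 20 channel and junction genes (median -0.15). The last count is near the 45.9% lower over all genes, and 7 of these 20 were higher. Their median was between -0.18 and 0.00 over the 6 settings, relative to all genes. Thick filament genes were lower in 3 of 12 cases and higher in 8 (median 0.07), thin filament genes in 5 and 5 of 11 (median 0.00), and Z-disc genes in 9 and 8 of 17 (median -0.08). On the same arrays, fibroblast and leukocyte markers were mostly higher on replicate 2, but other non-myocyte and matrix groups were not. Endothelial markers were higher in 4 and lower in 7 of 14 cases, epicardial markers in 2 and 4 of 7, and hepatocyte markers in 3 and 6 of 11. Fibrillar collagen genes were higher in 13 and lower in 11 of 24 cases, and basement membrane genes in 10 and 11 of 21. The 3' to 5' ratio of GAPDH was 1.64 on replicate 1 and 1.15 on replicate 2. That of beta-actin was 1.46 and 1.40, and that of hexokinase went the other way, at 3.77 and 4.12. The part of these in the differences was not tested.

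**Figure D4:**
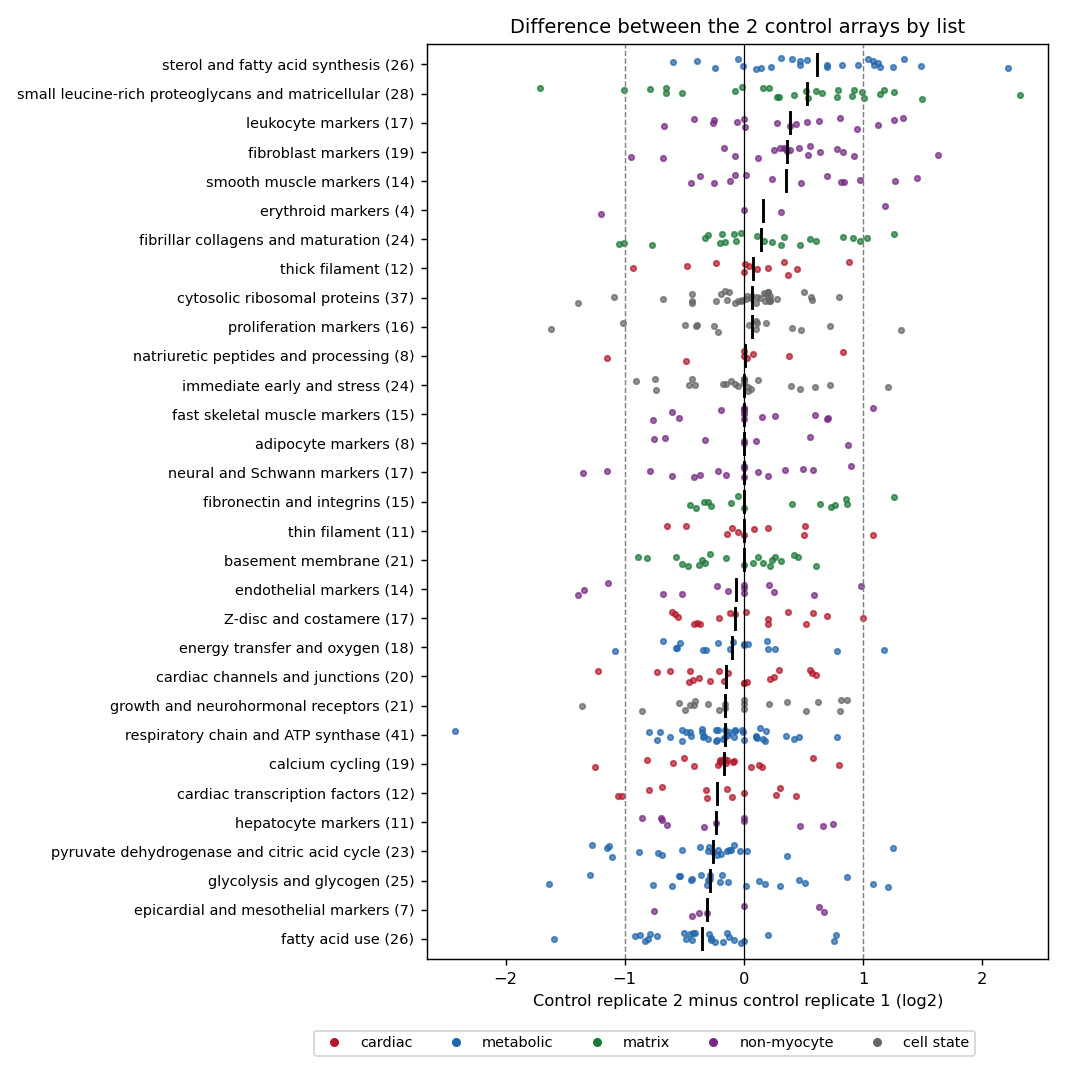
Difference in log2 signal, control replicate 2 minus control replicate 1, for every listed gene on the array by group, with black bars at the group medians. Sterol synthesis and proteoglycan genes lie mostly to the right (medians 0.61 and 0.53). Fatty acid use genes and the group of pyruvate dehydrogenase and citric acid cycle genes lie mostly to the left (medians -0.35 and -0.26).

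Different probe sets of a gene could disagree widely. Of 1868 genes with at least 2 probe sets, 589 (31.5%) had sets whose means spanned at least 2, and the median span was 1.34. The median difference between the arrays was 0.31, but the 2 measures are unlike. The span covers all sets of these genes, and the difference covers all probe sets, including those at the floor on both arrays. Tpm1 had 6 sets, the brightest at 13.01 and the dimmest at the floor. The 4 sets for Atp2a2 averaged 12.68, 9.97, 7.94 and 5.27, and those for Tnnt2 12.98 and 6.04. Myh7 had sets at 13.29 and 11.02, Myh6 at 9.79 and 6.10, and Col1a1 at 13.38 and 12.30, so the brighter Myh6 set lay below the dimmer Myh7 set. Nppa had 1 set.

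The same set was brightest on both arrays for 1562 of the 1868 genes. Of 264 genes in the brightest 10% with more than 1 probe set, 90 had their dimmest set below the median of all probe sets and 24 had it at the floor. Serpinh1, Gja1, Slc8a1, Got2, Hadh, Pgk1, Rps24 and Rpl14 had their dimmest set below that median, with spans of 5.26 to 7.21. Of these, Got2, Hadh and Pgk1 had it at the floor on both arrays. Ryr2, Npr1 and Cox7a1 were each measured by 1 set, so their low signals are open to the same spread.

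**Figure D5:**
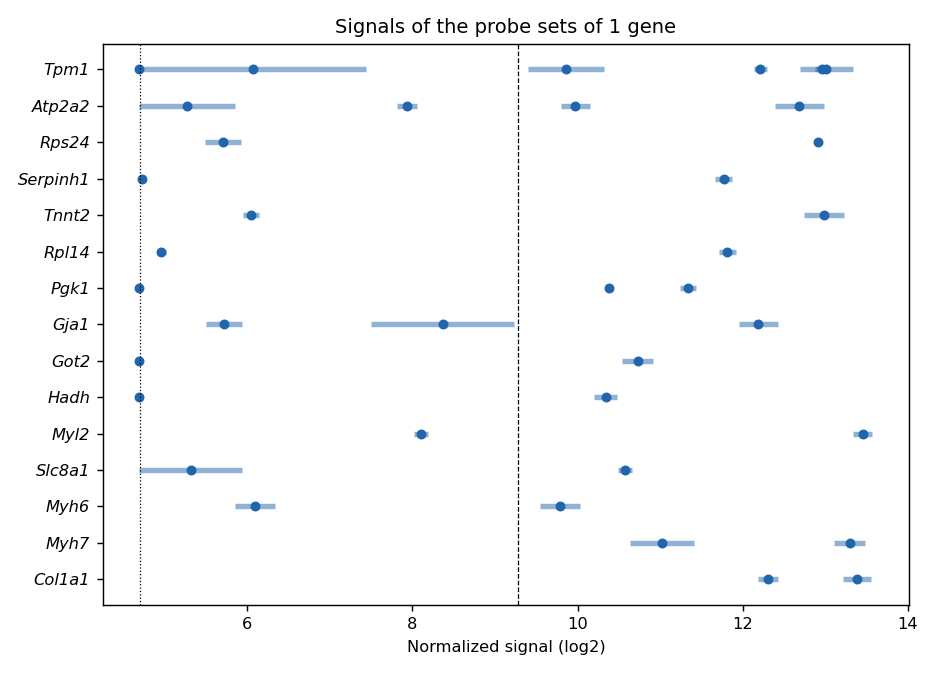
Mean normalized log2 signal of each probe set of Col1a1, Myh7, Myh6 and the 12 listed genes with the widest span of probe sets, 1 row per gene. Named genes with narrower spans are not shown. Horizontal bars join the values of control replicates 1 and 2. The dotted line is the floor and the dashed line the lower edge of the brightest 10% of genes. Tpm1 and Atp2a2 run from near the top of the scale to near the floor, spans of 8.32 and 7.41, while the 2 sets of Col1a1 lie 1.08 apart.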

How the data were processed

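Total RNA of 2 uncoated control samples had been hybridised to 1 Affymetrix rat array each. The authors deposited 1 linear signal intensity per probe set and array; how they made and scaled these intensities was not given in the sources used here. Both control arrays were quantile normalized together after 9 control probe sets were left out, raised to the 20th percentile (25.9) and converted to log2, with Python 3.11.15, numpy 2.4.6, pandas 2.3.3, scipy 1.17.1 and matplotlib 3.10.9. Their number limits the precision. No statistical test was made, since only 1 group was used. Gene names were taken from the array platform's supplied annotation: 12783 probe sets had 1 symbol, 312 several and 2771 none, and 12748 of the named sets were found in the GRCr8 gene table, with 0 symbols updated.

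The samples, groups of genes and choices were set with earlier results of these data known. The rule named the 20 brightest genes, 5 markers, up to 8 brightest and 4 dimmest members of each group, up to 12 members with the widest span of probe sets, and the 12 named probe sets with the largest control difference in the brightest 60%; members outside it were chosen after their values were seen. The calculations were tested on simulated data. Alternatives were the deposited scale, a median shift, other floors, the mean over probe sets, a wider top class, the brightest 60%, each array alone and, chosen after seeing the data, leaving out probe sets marked as shared.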

Additional observations from a re-analysis of the deposited data

How the results depend on the processing

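The count of 242 listed genes in the brightest 10% was between 223 (mean over the probe sets of a gene) and 304 (brightest 20%), and between 236 and 245 on each array alone. It was 227 without probe sets whose names mark them as shared between transcripts, an alternative chosen after seeing the data. Group median differences near 0 changed sign between settings, relative to all genes: Z-disc from -0.08 to 0.01, basement membrane from -0.09 to 0.01, energy transfer from -0.11 to 0.03, thin filament from -0.03 to 0.07 and neural markers from -0.20 to 0.11. Measures of agreement depended on how dim values were treated. The correlation of 0.94 was 0.91 over the brightest 60% of probe sets, 0.951 with the floor at the 40th percentile and 0.903 with no floor. The share of probe sets differing by at least 1 (10.5%) was then 8.06%, 3.96% and 21.4%, and 13.1% on the deposited scale. The share of genes whose probe sets span at least 2 (31.5%) was 16.3%, 18.5% and 44.6% under the same 3 changes, and 31.6% to 35.1% on each array alone. Each array alone gives no agreement between arrays. The deposited scale shifted replicate 2 by -0.244 in the median of all genes. Relative to it, the median difference of ribosomal protein genes was between 0.07 and 0.33 over 6 settings. No paired analysis was possible because only 1 group was used. With 2 arrays, the spread behind each gene rests on 1 difference.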
